A study of Mus musculus with 16 samples.

Results

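The genes described here are 38 members of fatty acid beta-oxidation in mouse adipose tissue, the enzymes, carriers and transporters that activate fatty acids, bring them into mitochondria or peroxisomes and shorten them there. They were chosen by name, as all entries of the expression table whose RefSeq transcript identifier maps to one of the 38 symbols, out of 35569 symbols and 130343 entries in the table. The members have 108 entries. Each member was counted once, by its leading entry, which is the entry with the highest mean CPM (its counts scaled by the library's total) over all 16 libraries. Of the 38 members 20 were placed in a mitochondrial list, 11 in a peroxisomal list and 7 in neither, because the protein works in both organelles or acts before entry into them.

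Fatty acids are first joined to coenzyme A by acyl-CoA synthetases. Long acyl chains then cross into mitochondria on carnitine, through carnitine palmitoyltransferases and a carrier, and are cut by a repeated cycle of dehydrogenation, hydration, a second dehydrogenation and thiolysis, while very long and branched chains are first shortened in peroxisomes by a parallel set of enzymes. White fat mainly stores fatty acids as triglyceride and burns less of them than muscle, heart, liver or brown fat, and the genes of the pathway are known targets of the PPAR family of lipid-sensing receptors.

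RNA was measured by poly(A) RNA-seq in 2 fat depots of 8 wild-type male C57BL/6J mice, inguinal subcutaneous adipose tissue (SAT, left and right pads combined) and mesenteric visceral adipose tissue (VAT). The lean mice, 4 in number, were kept on normal laboratory chow, and the 4 obese mice ate a Western diet with 42% of its energy from fat and 0.2% cholesterol, in both cases from 10 weeks of age and for 12 to 14 months. Each mouse gave 1 SAT and 1 VAT library, so that the 16 libraries form 4 groups of 4, SAT lean, SAT obese, VAT lean and VAT obese. The pieces of fat were whole tissue with visible vessels removed, so fewer cells of a type and less RNA per cell cannot be told apart, and the diets differed in cholesterol and other nutrients as well as in fat.

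Total counts ranged from 1256082 to 16614407 per library, and 1 count stood for 0.796 CPM in the shallowest library (VAT lean replicate 1) and for 0.0602 CPM in the deepest. VAT obese replicate 1 was the next shallowest with 2247737 counts. All 8 adipocyte markers were detected, and their summed level was 95360 TMM-scaled CPM (counts over the library's total after correction by edgeR's TMM factor) on average in SAT of lean mice, 78000 in SAT of obese mice, 54250 in VAT of lean mice and 39270 in VAT of obese mice. All sums of markers are given on this TMM scale. The macrophage markers summed to 1475, 2390, 2413 and 5344 CPM in the same order, and all 4 tested macrophage markers were higher in obese mice in both depots. Markers of skeletal muscle, a tissue rich in beta-oxidation enzymes, summed to between 1.80 and 8.76 CPM in any library. Of the 12 markers 1 was above 1 CPM on average, and Myh7 and Tnnt3 were at 0 in all 16 libraries. Myh7 has 3 entries and Tnnt3 has 21, so their counts of 0 are not read as absence of the RNA. Brown and beige adipocyte markers summed to 90.6, 65.6, 72.9 and 77.7 CPM on average in the same order of groups, and the sum combines markers called in opposite directions, 1 higher and 2 lower of 5 tested in obese SAT and 2 higher and 1 lower in obese VAT.

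How deeply a member was counted went with the number of transcripts listed for it. The 19 members with 1 entry were all counted well enough to be tested (over 1 CPM in at least 3 libraries), with a median of the mean CPM of 273. Of the 19 members with several entries 11 were tested, 8 stayed below 1 CPM on average, and the median was 1.71 CPM. In the whole table the share tested was 28.1% of the 18371 symbols with 1 entry and 29.9% of the 17198 symbols with several. How reads shared by transcripts of 1 gene were counted is not given in the sources used here, so a low count of a gene with several entries is not read as low expression. The split fell unevenly over the organelles. Of the 20 mitochondrial members 17 had 1 entry, whereas of the 11 peroxisomal members only Hsd17b4 did, and 18 mitochondrial, 6 peroxisomal and 6 other members were tested, 30 in all.

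**Figure D1:**
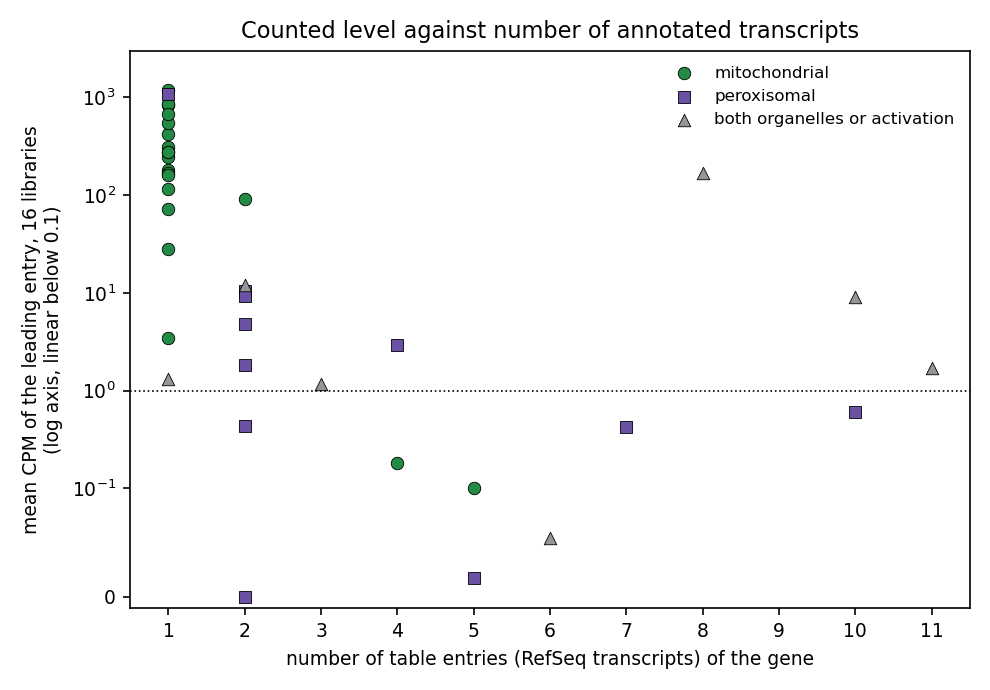
Mean CPM of the leading entry over 16 libraries (log axis, linear below 0.1) against the number of RefSeq entries of the gene, 1 point for each of the 38 members, with the dotted line at 1 CPM. The 19 members with 1 entry all lie above the line, and the 8 members below it all have several entries.

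The 8 members that could not be tested are named with the counts of their leading entry summed over all 16 libraries. Cpt1a, the carnitine palmitoyltransferase of liver and many other tissues, had 5 entries and 20 counts. Hadhb, the thiolase subunit of the mitochondrial trifunctional protein, had 4 entries and 36 counts, while Hadha, its partner subunit with 1 entry, was counted at 547 to 860 TMM-scaled CPM in every library. Acox3, a peroxisomal acyl-CoA oxidase for branched chains, had 89 counts over 10 listed transcripts, and Acaa1a, a peroxisomal thiolase, had 3 counts. The peroxisome import receptor Pex5 had 64 counts and the peroxisome division factor Pex11a 68. Acsl4, an acyl-CoA synthetase that prefers arachidonic acid, had 6 counts, and Abcd2, a peroxisomal transporter of very long acyl-CoA, had 0 counts in all 16 libraries, a count that leaves room for a level of 0.181 CPM in the deepest and 2.39 CPM in the shallowest of them.

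Regulatory sequence just upstream of the members was taken from RefSeq promoter windows (table build GRCm38.p6), which were found for 32 of the 38 members. The stretches printed belong to Acsl1 and Ehhadh, the members whose diet response differed between the depots, and to Ucp3, the one of the members called in VAT and matched here whose window holds the AGGTCA element read by nuclear receptors. Each stretch was placed by an exact match that occurs once on its chromosome in GRCm39 and ends before the gene's annotated first exon. Capitals mark the GC box with the letters GGGCGG, the box that is named for its letters CCAAT, and the nuclear receptor element, all on either strand.
Acsl1, chr8:46923824-46924062, plus strand: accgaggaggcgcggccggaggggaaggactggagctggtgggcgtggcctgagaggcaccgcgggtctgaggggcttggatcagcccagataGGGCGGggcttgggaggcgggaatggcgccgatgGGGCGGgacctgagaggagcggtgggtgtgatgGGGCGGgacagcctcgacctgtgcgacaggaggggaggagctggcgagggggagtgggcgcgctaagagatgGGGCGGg
Ehhadh, chr16:21606585-21606834, minus strand: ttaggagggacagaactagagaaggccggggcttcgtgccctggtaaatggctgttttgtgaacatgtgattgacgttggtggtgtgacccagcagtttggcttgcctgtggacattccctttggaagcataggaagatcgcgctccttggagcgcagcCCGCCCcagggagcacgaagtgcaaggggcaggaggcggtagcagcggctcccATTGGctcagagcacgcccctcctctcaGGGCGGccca
Ucp3, chr7:100121948-100122135, plus strand: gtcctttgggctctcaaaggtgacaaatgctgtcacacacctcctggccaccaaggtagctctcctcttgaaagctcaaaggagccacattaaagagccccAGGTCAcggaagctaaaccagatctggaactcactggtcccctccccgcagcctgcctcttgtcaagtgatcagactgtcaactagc

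The Acsl1 stretch holds 4 GC boxes in 239 bases, of which 72% are G or C. Ehhadh has 2 GC boxes and 1 CCAAT box in 250 bases, and Ucp3 has no GC box and 1 AGGTCA element in 188 bases. Over the 36 upstream windows of 250 bases that belong to the members, a GC box was present in 22 (61.1%, against 32.7% of 32851 windows in the table), a CCAAT box in 17 (47.2%, against 33.8%) and AGGTCA in 5 (13.9%, against 14%). The 5 members with AGGTCA were Acadm, Acadvl, Cpt1a, Echs1 and Ucp3. A match of letters is a description of the window and no record of a factor bound there.

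The question of the study was how long-term high-fat feeding changes gene expression in each depot. In SAT, 3 of the 30 tested members were higher in obese than in lean mice and 2 were lower (edgeR quasi-likelihood test, Benjamini-Hochberg adjusted p below 0.05 over 13288 entries). Among all 10293 symbols with a tested leading entry the same call was made for 6.89% as higher and for 5.02% as lower. The members that rose were Cpt1b and the acyl-CoA synthetases Acsl1 and Acsl5. The members that fell were Etfa and Acaa2, an electron acceptor and a thiolase. The median log2 fold change over the 30 members was -0.02, against 0.01 over all symbols.

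Cpt1b, the muscle form of the carnitine palmitoyltransferase that commits long acyl chains to mitochondria, lies at chr15:89300606-89310239 in GRCm39 on the minus strand. Its level in SAT of lean mice was 1.81, 0.982, 1.99 and 3.60 TMM-scaled CPM in replicates 1 to 4, and in SAT of obese mice it was 7.36, 5.81, 7.01 and 4.92. All 4 obese libraries lay above all 4 lean ones. The fold change was 3.13 (log2 fold change 1.65 ± 0.33, standard error, adjusted p = 0.00188 by edgeR), and it was the member in SAT that passed a limit of 1.5 on the log2 scale, which 2.72% of all symbols passed in either direction. These values rest on 7 to 102 counts per library. Of its 4008 annotated exon bases 2744 are shared on the same strand with Gm44502, so reads of both cannot be told apart.

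Acsl1 is the main long-chain acyl-CoA synthetase of adipocytes (chr8:46924063-46990145, plus strand, the start preceded by the stretch with 4 GC boxes). Its leading entry, 1 of 8, was at 139, 98.3, 179 and 183 TMM-scaled CPM in SAT of lean mice and at 377, 387, 271 and 192 in SAT of obese mice. The obese libraries were all higher, the lowest of them by little. The mean rose from 149.7 ± 39.7 to 307 ± 92.7 (SD, n = 4 mice each), which is a log2 fold change of 1.04 ± 0.23 with adjusted p = 0.00549 in edgeR. The other tested entries of Acsl1 did not pass in SAT, with log2 fold changes of 0.57 (adjusted p = 0.147 by edgeR) and 0.25 (adjusted p = 0.782 by edgeR).

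Acsl5, a synthetase found on mitochondria and the endoplasmic reticulum, varied little within groups. It was at 8.73, 8.55, 9.78 and 9.11 TMM-scaled CPM in SAT of lean mice, and at 14.9, 15.3, 14.99 and 14.2 in SAT of obese mice. The groups were well apart. The log2 fold change was 0.72 ± 0.16 (adjusted p = 0.00447, edgeR), a rise of 64.2%. Acsl5 lies at chr19:55240267-55286153 on the plus strand, and 2217 of its 5946 exon bases overlap Zdhhc6 on the other strand. Acsl3, a synthetase of the endoplasmic reticulum and lipid droplets, had a log2 fold change of 1.35 ± 0.55 in SAT that did not pass (adjusted p = 0.12, edgeR), on 0 to 23 counts per library.

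**Figure D2:**
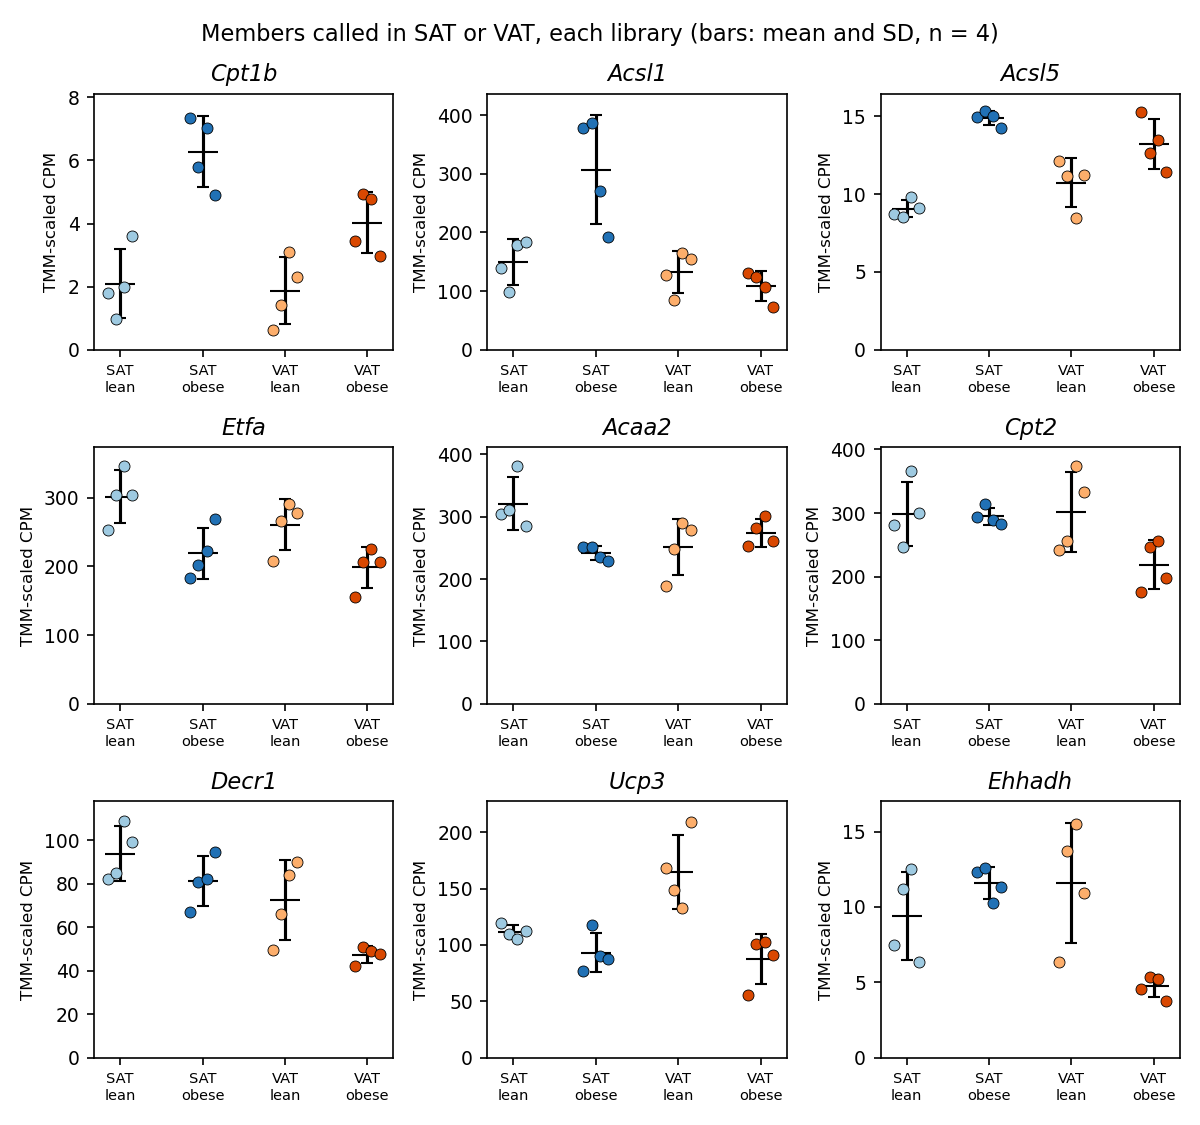
TMM-scaled CPM of the 9 members called in SAT or VAT, 1 panel per gene with its own axis from 0, 1 point per library, with a bar at the mean and whiskers of 1 SD (n = 4 mice). The SAT obese points of Cpt1b, Acsl1 and Acsl5 all lie above the SAT lean points, and the VAT obese points of Ucp3 and Ehhadh all lie below the VAT lean points.

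Etfa encodes the alpha subunit of the electron transfer flavoprotein, which takes electrons from the acyl-CoA dehydrogenases. It was at 253, 304, 346 and 304 TMM-scaled CPM in SAT of lean mice and at 183, 202, 223 and 269 in SAT of obese mice. The highest obese library lay above the lowest lean one. The log2 fold change was -0.46 ± 0.14 (adjusted p = 0.0378, edgeR), and this call was lost with adjusted p between 0.0595 and 0.13 when lean mouse 2, 3 or 4 or obese mouse 1, 2 or 3 was left out, and with adjusted p = 0.0883 without the filter on low counts. Over all alternatives its adjusted p ran from 0.00356 to 0.13.

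Acaa2, the mitochondrial thiolase of medium and long chains, was at 305, 311, 382 and 285 TMM-scaled CPM in SAT of lean mice and at 251, 252, 236 and 229.6 in SAT of obese mice. All obese libraries were below all lean ones. Its log2 fold change of -0.41 ± 0.13 passed narrowly (adjusted p = 0.0384, edgeR). The call was lost without lean mouse 2 or 3 or obese mouse 2, 3 or 4 (adjusted p from 0.0538 to 0.144) and without the filter on low counts (adjusted p = 0.169), and over all alternatives the adjusted p ran from 0.007 to 0.169.

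The other mitochondrial enzymes in SAT did not pass the threshold in the main fit of 16 libraries, and most had a negative sign. Of the 18 tested mitochondrial members 14 (77.8%) had a negative log2 fold change, against 48.7% of all symbols, with a median of -0.19. Acadm, the medium-chain acyl-CoA dehydrogenase, was at 1577 ± 213 TMM-scaled CPM in lean and 1187 ± 125 in obese SAT (log2 fold change -0.41, adjusted p = 0.0775, edgeR). Hadh, the dehydrogenase of hydroxyacyl-CoA, had -0.28 (adjusted p = 0.152), Acot2, a mitochondrial thioesterase, -0.40 (adjusted p = 0.132), and Etfb, the beta subunit of the flavoprotein, -0.46 (adjusted p = 0.0759), none of which passed in edgeR. In Acadm, Hadh and Acot2 all obese SAT libraries lay below all lean ones, as in Acaa2, which makes 4 of 30 members, against 7.72% of all symbols. All obese libraries lay above in 4 members, Cpt1b, Acsl1, Acsl5 and Abcd3, against 10.3% of all symbols. Acadm was called lower in a fit of the 8 SAT libraries alone, with the replicate number as a block and without lean mouse 1. Etfb was called lower without lean mouse 2. Leaving out both shallow VAT libraries, which also enter the estimate of the spread, brought the lower calls in SAT to 4, Acaa2, Acadm, Etfa and Hadh.

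In VAT the direction was more uniform. Of the 30 tested members 25 had a lower level in obese mice, 83.3% against 47.0% of all symbols, and the median log2 fold change was -0.29 against 0.03. Called lower were 4 members, Ehhadh, Ucp3, Decr1 and Cpt2, against 4.38% of all symbols. Called higher was 0 of 30 in edgeR, against 8.02% of all symbols, with Cpt1b alone higher at an unadjusted p below 0.05, and the count was 0 in DESeq2 too, but 1 (Cpt1b) with legacy=FALSE, the newer form of the edgeR test. No member passed the limit of 1.5 on the log2 scale in VAT, which 3.45% of all symbols did.

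Ehhadh, the bifunctional hydratase and dehydrogenase of peroxisomes, fell the most of the 30 tested members (chr16:21580036-21606563, minus strand). It was at 6.37, 13.7, 15.5 and 10.9 TMM-scaled CPM in VAT of lean mice, and at 4.58, 5.34, 5.25 and 3.76 in VAT of obese mice. All 4 obese libraries were below all 4 lean ones. The level fell by 61.3% (log2 fold change -1.37 ± 0.24, adjusted p = 0.000621, edgeR). In SAT the values were 7.49, 11.2, 12.5 and 6.36 in lean mice and 12.3, 12.6, 10.2 and 11.3 in obese mice, which overlap (log2 fold change 0.29 ± 0.22, adjusted p = 0.462, edgeR). The lean VAT library with the lowest level is also the shallowest, with 10 counts, and obese VAT replicate 1 had 12 counts.

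Ucp3, an anion carrier of the inner mitochondrial membrane related to the uncoupling protein of brown fat and induced by fatty acids, lies at chr7:100122136-100135976 on the plus strand, behind the stretch with the AGGTCA element. It was at 168, 149, 133 and 209 TMM-scaled CPM in VAT of lean mice and at 55.4, 101, 103 and 91.3 in VAT of obese mice. The groups did not overlap. The level fell by 46.2% (log2 fold change -0.89 ± 0.17, adjusted p = 0.00114, edgeR). In SAT it was at 112 ± 5.94 in lean and 93.0 ± 17.3 in obese mice, with overlapping libraries and a log2 fold change of -0.26 ± 0.17 (adjusted p = 0.35, edgeR). Non-overlap with the obese VAT libraries below held for 2 of 30 members, Ehhadh and Ucp3, against 5.06% of all symbols, and the opposite held for 0 members against 9.63%.

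Decr1, the mitochondrial reductase that unsaturated fatty acids need, was at 49.7, 66.3, 84.2 and 90.2 TMM-scaled CPM in VAT of lean mice and at 42.0, 51.03, 49.2 and 47.5 in VAT of obese mice. Lean replicate 1 fell within the obese range and the other lean libraries lay above it. The log2 fold change was -0.63 ± 0.16 (adjusted p = 0.0103, edgeR).

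Cpt2, the carnitine palmitoyltransferase of the inner membrane that releases acyl-CoA to the matrix, was at 241, 257, 374 and 333 TMM-scaled CPM in VAT of lean mice and at 176, 246, 256 and 197 in VAT of obese mice. Lean replicate 1 was below 2 of the obese libraries. The log2 fold change was -0.46 ± 0.15 (adjusted p = 0.0475, edgeR). This call was lost without lean mouse 3 or 4 or obese mouse 1 or 4 (adjusted p from 0.0879 to 0.169) and in a fit of the 8 VAT libraries alone (adjusted p = 0.0597), within a range of 0.0148 to 0.169 over all alternatives. In SAT the level of Cpt2 was 298 ± 50.4 in lean and 295 ± 13.3 in obese mice.

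None of the 8 tested spiral enzymes, nor Etfa, passed in VAT in edgeR with TMM factors. Acadvl, Acadl, Acadm and Acads, which act on very long, long, medium and short chains, had log2 fold changes of -0.27, -0.29, -0.37 and -0.29. Hadh had -0.37 (adjusted p = 0.0553, edgeR), Echs1, the short-chain hydratase, -0.42 (adjusted p = 0.0784, edgeR), and Etfa -0.40 (adjusted p = 0.0782, edgeR). These calls turned on the setting. All of Hadh, Echs1 and Etfa were called lower with filterByExpr, with counts summed per gene and with the replicate number as a block. Hadh was also called with RLE factors, legacy=FALSE and DESeq2, Echs1 without a filter, and both without obese mouse 3. Acaa2 and Cpt1b were the mitochondrial members with a positive sign, 0.12 and 0.98 (Cpt1b adjusted p = 0.0703, edgeR). Without lean mouse 1, whose VAT library was the shallowest of all, the number called lower in VAT rose from 4 to 12 and took in Acadvl, Acadl, Acadm, Echs1, Hadh, Etfa, Etfdh and Hsd17b4. Without both shallow VAT libraries it was 7, and without lean mouse 3 Cpt1b was called higher.

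**Figure D3:**
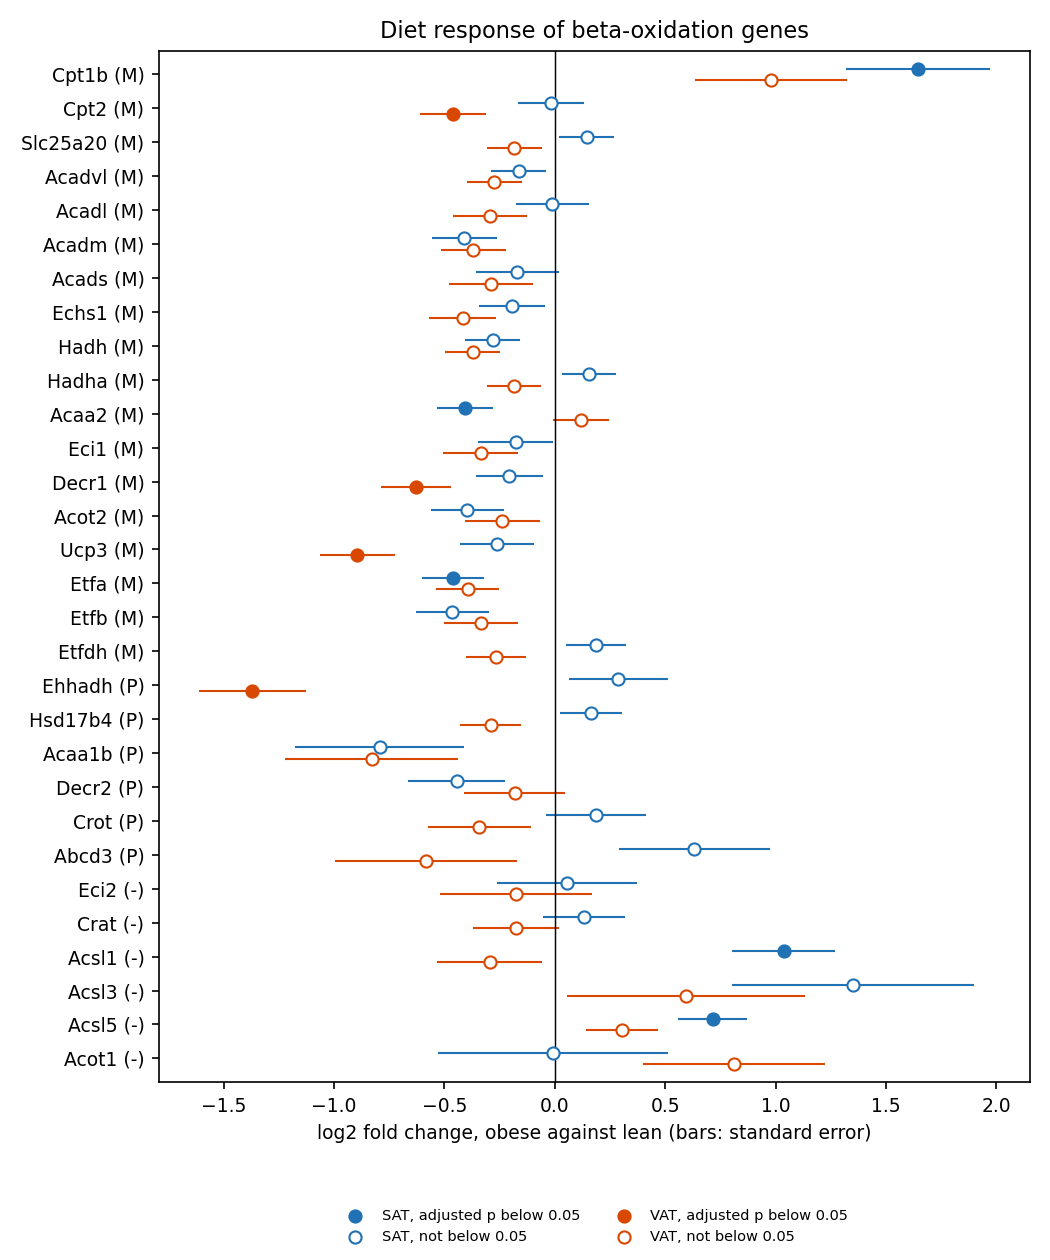
Log2 fold change of obese against lean mice for the 30 tested members in SAT and VAT, with bars of 1 standard error from edgeR and filled points where the adjusted p is below 0.05 (M mitochondrial, P peroxisomal, a dash for neither). In VAT 25 of 30 points lie left of 0, and in SAT 17 do.

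The levels of cell type markers moved with diet in both depots. In VAT 3 of 8 adipocyte markers were called lower in obese mice and the summed level ran from 41490 to 60580 CPM in lean and from 33240 to 44290 CPM in obese libraries, while the macrophage sum ran from 2130 to 2845 and from 4375 to 6756 CPM. In SAT 1 of 8 adipocyte markers was called lower, with sums of 84880 to 104900 and 71220 to 87330 CPM, and the macrophage sums were 1227 to 1686 and 1909 to 2847 CPM. Their part in the changes of the members was not tested.

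Whether a member responded differently in the depots was tested by the VAT response minus the SAT response, with the mouse as a block. The diet response was lower in VAT for 2 of 30 members, Acsl1 and Ehhadh, against 1.46% of all symbols, and higher for 0 in edgeR, against 1.09%. At an unadjusted p below 0.05 Acaa2 alone had the higher response in VAT, and DESeq2 called it. For Acsl1 the 4 VAT values were 127, 84.2, 164 and 154 TMM-scaled CPM in lean mice and 130.2, 123, 107 and 72.9 in obese mice, which overlap, whereas in SAT the level rose by 105%. The difference of the responses was -1.30 ± 0.15 on the log2 scale (adjusted p = 1.31e-05, edgeR), and for another entry of the gene, counted at 11.4 CPM on average, it was -1.16 (adjusted p = 0.0424, edgeR), while for the remaining tested entry, at 1.15 CPM, it was -0.07 (adjusted p = 0.98, edgeR). Without the mouse block the leading entry no longer passed (adjusted p = 0.0513), and over all alternatives its adjusted p ran from 3.39e-16 to that value.

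For Ehhadh the difference was -1.61 ± 0.29 (adjusted p = 0.0029, edgeR), and it was the member beyond the limit of 1.5, which 0.67% of all symbols passed. It came from a fall in VAT beside a small positive value in SAT that did not pass. Ucp3 (-0.64, adjusted p = 0.0578), Cpt2 (-0.45, adjusted p = 0.137) and Decr1 (-0.39, adjusted p = 0.275), which were called lower in VAT and not in SAT, did not differ between depots beyond the threshold in edgeR with TMM factors. The Ucp3 difference passed with RLE factors, with filterByExpr, with counts summed per gene, and without lean mouse 1 or obese mouse 3, and DESeq2 called Ucp3 and Cpt2. Cpt1b, called higher in SAT alone, had a difference of -0.63 ± 0.44 (adjusted p = 0.564, edgeR), and Acsl5 one of -0.40 ± 0.26 (adjusted p = 0.515, edgeR). Without lean mouse 1 there were 5 members with the lower response in VAT, Acsl1, Ehhadh, Etfdh, Hsd17b4 and Ucp3.

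The depots themselves were compared within each diet, VAT against SAT of the same mice. These comparisons use the libraries of the diet comparisons again and are given as values beside them. In lean mice 1 of 30 members was higher in VAT, against 9.15% of all symbols, and 3 were lower, against 7.72%. None of the called members was beyond the limit of 1.5, which 5.96% of all symbols passed. All 4 VAT libraries lay above all 4 SAT libraries in 2 members, Ucp3 and Crot, against 9.61% of all symbols, and below them in 1 member, Acadm, against 9.89%. Ucp3 was higher in lean VAT at 165 ± 32.7 TMM-scaled CPM, against 112 ± 5.94 in lean SAT (log2 fold change 0.54 ± 0.12, adjusted p = 0.00377, edgeR). Acadm was lower in lean VAT (-0.45 ± 0.11, adjusted p = 0.00653, edgeR), as were Decr1 (-0.38 ± 0.12, adjusted p = 0.0364, edgeR) and Acaa2 (-0.36 ± 0.11, adjusted p = 0.0328, edgeR). The calls of Decr1 and Acaa2 were lost without lean mouse 1, 2 or 3 (adjusted p from 0.0887 to 0.15), and that of Acadm without lean mouse 3 (adjusted p = 0.055) or without the mouse block (adjusted p = 0.0527). Without the mouse block Decr1 and Acaa2 did not pass either (adjusted p = 0.152 and 0.0736), nor without the filter on low counts (0.189 and 0.114) or without both shallow VAT libraries (0.119 and 0.124).

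In obese mice 12 of 30 members were lower in VAT than in SAT, against 14.4% of all symbols, and 1 was higher, against 17.8%. The 8 mitochondrial ones were Decr1, Etfdh, Slc25a20, Acadl, Cpt2, Acadm, Echs1 and Hadh, with log2 fold changes from -0.77 to -0.33. Acadl, Cpt2, Acadm, Echs1 and Hadh had -0.51, -0.44, -0.41, -0.37 and -0.33, with adjusted p of 0.00107, 0.00345, 0.00773, 0.0254 and 0.0223 in edgeR, and the depots overlapped for Echs1 and Hadh. The others were the peroxisomal Ehhadh, Hsd17b4 and Abcd3, and Acsl1. All 4 VAT libraries lay below all 4 SAT libraries in 10 members, against 14.9% of all symbols, and above them in 2 members, Acot1 and Acaa2, against 16.5%. Of the calls 2, Abcd3 and Acot1, were beyond the limit of 1.5, which 9.83% of all symbols passed. Adipocyte markers went with them, since 6 of 8 were lower in obese VAT than in obese SAT and 3 of 8 in lean VAT than in lean SAT. Their part was not tested.

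Acsl1 had the depot difference in obese mice with the smallest adjusted p of the members, 307 ± 92.7 TMM-scaled CPM in SAT and 108.5 ± 25.6 in VAT (log2 fold change -1.48 ± 0.10, adjusted p = 3.73e-10, edgeR). In lean mice its depots were at 149.7 ± 39.7 and 132 ± 35.7 and did not differ beyond the threshold (adjusted p = 0.282, edgeR). Decr1 in obese mice was at 67.2, 81.0, 82.2 and 94.9 TMM-scaled CPM in SAT and at 42.0, 51.03, 49.2 and 47.5 in VAT. The depots did not overlap (log2 fold change -0.77 ± 0.12, adjusted p = 3.82e-05, edgeR). Etfdh, which passes electrons from the flavoprotein to ubiquinone, was at 382 ± 39.6 in SAT and 253 ± 30.4 in VAT of obese mice (-0.60 ± 0.11, adjusted p = 0.000336, edgeR). Slc25a20, the carrier that exchanges acylcarnitine for carnitine, was at 205 ± 21.6 and 139.8 ± 16.4 (-0.55 ± 0.11, adjusted p = 0.000559, edgeR).

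Abcd3, a peroxisomal importer of branched and long acyl-CoA, was at 2.84, 3.48, 3.09 and 3.23 TMM-scaled CPM in SAT of obese mice and at 1.91, 1.31, 0.859 and 0.597 in VAT of obese mice. All VAT libraries were lower. The log2 fold change was -1.62 ± 0.41 (adjusted p = 0.00442, edgeR) on 5 to 16 counts per VAT library, and the call was lost without obese mouse 4 (adjusted p = 0.0516). Without that mouse Acadm, Echs1 and Hadh also no longer passed (adjusted p = 0.074, 0.0876 and 0.101), and without obese mouse 1 Echs1 and Hadh did not (adjusted p = 0.137 and 0.0816). Echs1 and Hadh were also lost without the mouse block (adjusted p = 0.0979 and 0.0654) and without both shallow VAT libraries (adjusted p = 0.152 and 0.103).

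Acot1, a cytosolic acyl-CoA thioesterase, was the member called higher in obese VAT than in obese SAT. It was at 0.46, 0.528, 0.688 and 0.615 TMM-scaled CPM in SAT and at 2.29, 1.07, 3.34 and 3.58 in VAT. The depots were apart in obese mice (log2 fold change 2.09 ± 0.46, adjusted p = 0.00135, edgeR), on 5 to 42 counts per library. Acot1 and Acot2 lie side by side on chromosome 12 and are closely similar in sequence, as are Acaa1a and Acaa1b on chromosome 9, so their counts depend on how reads common to both were assigned and are uncertain.

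**Figure D4:**
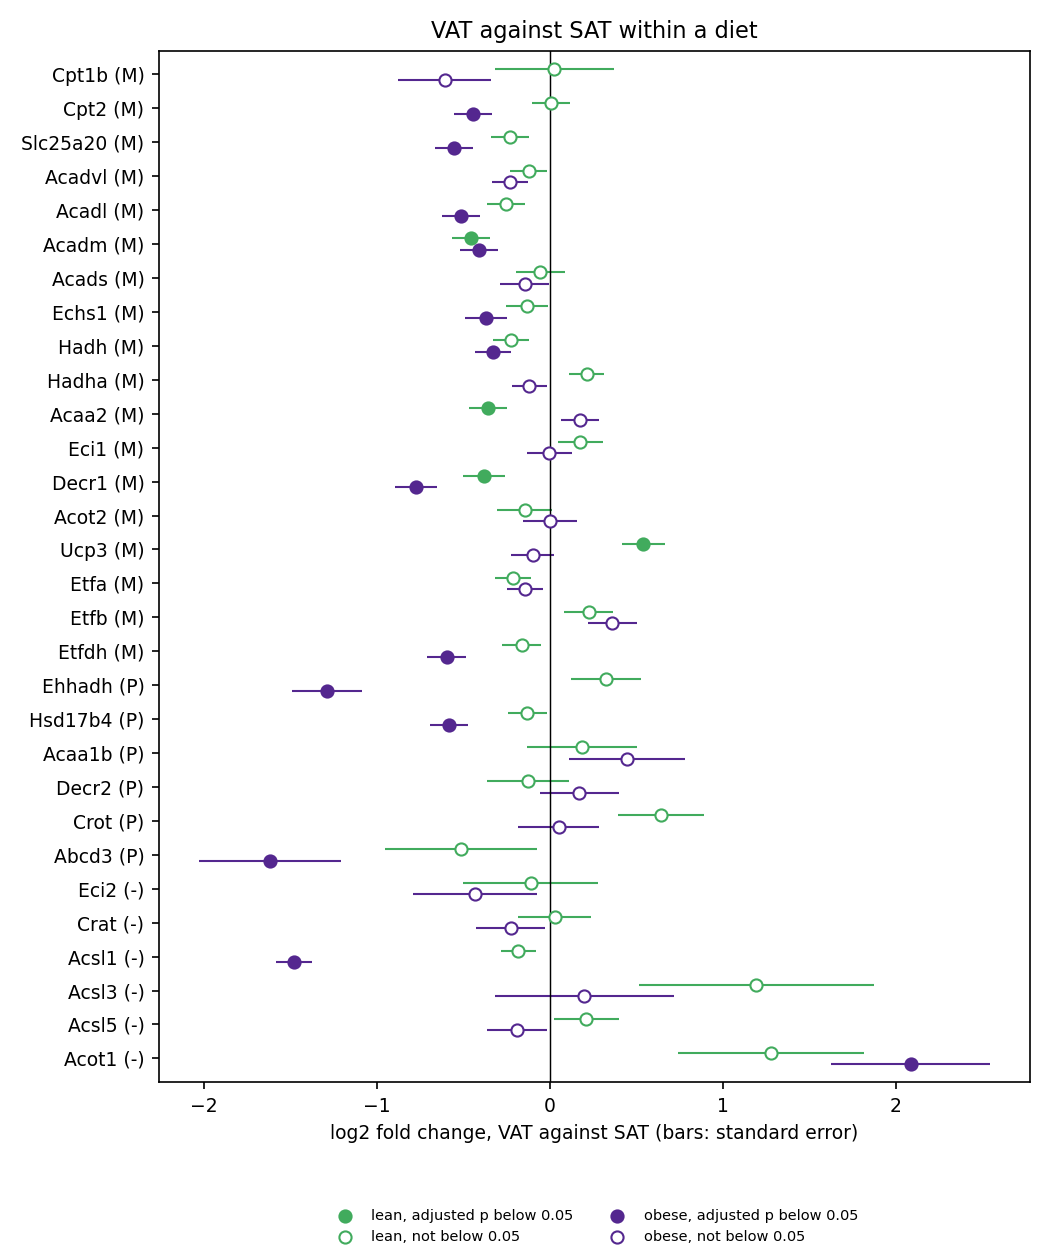
Log2 fold change of VAT against SAT of the same mice for the 30 tested members in lean and obese mice, with bars of 1 standard error from edgeR and filled points where the adjusted p is below 0.05 (M mitochondrial, P peroxisomal, a dash for neither). In obese mice 12 filled points lie left of 0, and in lean mice 3 do.

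Mitochondrial and peroxisomal members were set beside each other as descriptions, without a test of the lists. In SAT the median log2 fold change with diet was -0.19 over the 18 mitochondrial members and 0.18 over the 6 peroxisomal ones, which ran from -0.79 to 0.63. In VAT the medians were -0.31 and -0.46, and all 6 peroxisomal members had a negative sign. Of the 6 peroxisomal values in each depot 5 came from genes with several entries, at 10.5 CPM or less on average. Of the 18 mitochondrial values 17 came from genes with 1 entry. Of the 18 tested mitochondrial members 1 was called higher and 2 lower in SAT, against 6.89% and 5.02% of all symbols, and 0 higher and 3 lower in VAT, against 8.02% and 4.38%. Of the peroxisomal members 0 were called in SAT, where 0 had an unadjusted p below 0.05 in edgeR and DESeq2 called 0, and Ehhadh alone was called in VAT.

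The ratio of the summed CPM of the mitochondrial to the summed CPM of the peroxisomal members does not depend on the scaling of a library, but since Hsd17b4 makes up nearly all of the peroxisomal sum it sets the mitochondrial sum mainly against that gene. In SAT it was 5.90 to 6.66 in lean and 4.73 to 5.32 in obese libraries, which did not overlap. In VAT it was 5.70 to 6.47 in lean and 5.59 to 6.46 in obese libraries, which did. The sum of the mitochondrial members was 7415 ± 773 TMM-scaled CPM in lean and 6577 ± 440 in obese SAT, and that of the peroxisomal members was 1180 ± 126 and 1317 ± 110, with overlapping libraries in both. In VAT they were 6640 ± 1108 and 5327 ± 774, and 1094 ± 212 and 890.4 ± 152. The sums depend on the scaling. On the deposited CPM, which has no TMM factor, the mitochondrial sums were 7330 ± 553 and 5611 ± 236 in SAT, and the peroxisomal sums were 1168 ± 99.4 and 1123 ± 63.1, so that the sign of the peroxisomal difference in SAT turned and the mitochondrial sums no longer overlapped (6823 to 8018 and 5306 to 5871). In VAT they were 7218 ± 665 and 5715 ± 498, and 1188 ± 138 and 954.7 ± 111 on that scale, again without overlap of the mitochondrial sums (6373 to 7760 and 5021 to 6117). Hsd17b4, the bifunctional enzyme that handles branched and very long chains, made up 96.4% to 98.0% of the peroxisomal sum in each library. It is the peroxisomal member with 1 entry, whereas the other 10 have several entries and a median of 1.22 CPM. The share and the ratios, with and without Hsd17b4, depend on how genes with several entries were counted. The share also takes no account of transcript length. Without Hsd17b4 the ratio was 187 to 312 in lean and 174 to 247 in obese SAT, which overlapped, on peroxisomal sums of 20.1 to 42.1 TMM-scaled CPM over all libraries.

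**Figure D5:**
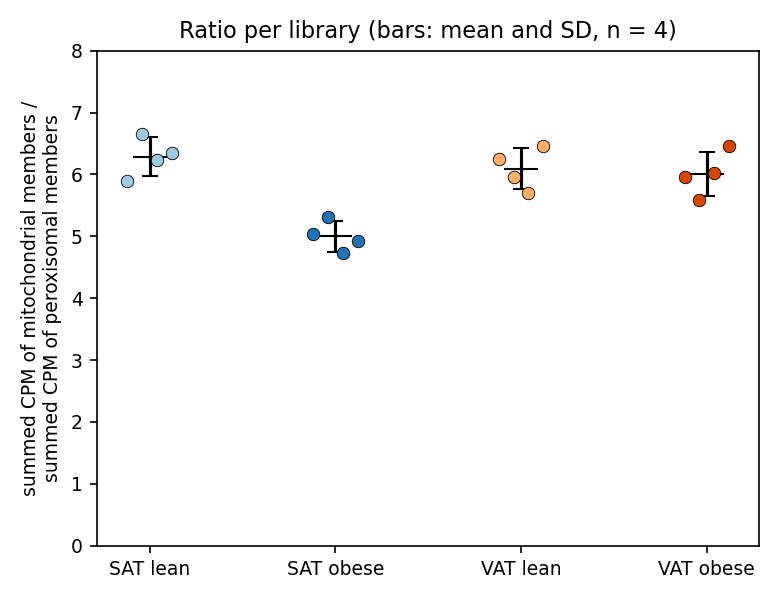
Ratio of the summed CPM of mitochondrial members to that of peroxisomal members in each library, with a bar at the mean and whiskers of 1 SD (n = 4 mice per group). The 4 SAT obese libraries lie between 4.73 and 5.32, below the 12 other libraries, which lie between 5.59 and 6.66. Hsd17b4 makes up 96.4% to 98.0% of the peroxisomal sum, a share that depends on how genes with several entries were counted.

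Hsd17b4 itself was at 1100, 1033, 1326 and 1134 TMM-scaled CPM in SAT of lean mice and at 1160, 1232, 1341 and 1409.5 in SAT of obese mice. In VAT it was at 791, 1071, 1289 and 1087 in lean and at 699, 1004, 982 and 780.3 in obese mice. The groups overlapped in both depots, with log2 fold changes of 0.16 (adjusted p = 0.513, edgeR) and -0.29 (adjusted p = 0.21, edgeR). In obese mice the VAT libraries were all below the SAT libraries (-0.58 ± 0.11, adjusted p = 0.000371, edgeR).

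The remaining peroxisomal and shared members had low counts and did not pass with diet. Acaa1b, a peroxisomal thiolase, had log2 fold changes of -0.79 ± 0.38 in SAT and -0.83 ± 0.39 in VAT. Decr2, the peroxisomal reductase, had -0.44 and -0.18, and Crot, which exports shortened chains as carnitine esters, had 0.19 and -0.34. Another tested entry of Decr2, at 1.45 CPM on average, had 1.07 in SAT and 1.185 in VAT, which did not pass. Abcd3 had 0.63 and -0.58, with all obese SAT libraries above all lean ones and a count of 0 in VAT lean replicate 1. Eci2, an isomerase of both organelles, had 0.06 and -0.18, and Crat, the acetyltransferase that buffers acetyl groups on carnitine, had 0.13 and -0.18. Eci1, the mitochondrial isomerase, had -0.18 and -0.34, and Acads and Hadha likewise stayed under the threshold in both depots.

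A list of 49 further genes around the pathway, enzymes, regulators and peroxisome factors, had 32 tested. In SAT 1 was called higher and 2 lower, against 6.89% and 5.02% of all symbols, and in VAT 1 higher and 3 lower, against 8.02% and 4.38%. In SAT Pdk4, the kinase that holds back pyruvate oxidation when fatty acids are burnt, rose from 224 ± 61.6 to 427 ± 77.9 TMM-scaled CPM (log2 fold change 0.93, adjusted p = 0.00518, edgeR). Hsd17b10, a mitochondrial dehydrogenase of short branched chains, fell from 192 ± 24.8 to 129.7 ± 6.24 (-0.57, adjusted p = 0.0114, edgeR).

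In VAT the genes of that list that fell were peroxisomal. Scp2, a sterol carrier and thiolase, went from 27.98 ± 7.23 to 17.4 ± 0.485 TMM-scaled CPM (-0.72, adjusted p = 0.0132, edgeR). Lonp2, the peroxisomal protease, went from 275 ± 37.0 to 198 ± 33.7 (-0.48, adjusted p = 0.0212, edgeR), and Pex13, a docking protein of peroxisomal import, from 144 ± 23.4 to 111 ± 9.51 (-0.39, adjusted p = 0.0414, edgeR). The diet response of Lonp2 was lower in VAT than in SAT (-0.60, adjusted p = 0.0417, edgeR), and for Scp2 and Pex13 the difference between depots did not pass.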

How the data were processed

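The deposited table gives, for 130343 RefSeq transcript entries and 16 libraries, raw counts and CPM. Per the labels and the study's methods the authors trimmed paired-end reads (Trim Galore, version 0.6.6 in the submitters' processing notes and another in the methods), aligned them with HISAT2 2.2.0 to GRCm39, counted them with HTSeq 0.13.5 and tested with edgeR 3.34.0. The strand setting and the treatment of reads shared by transcripts are not given in the sources used here. The deposited CPM equals the deposited counts scaled by the library total. It served for the filter, the leading entries and the limits, and levels and sums are TMM-scaled unless given as deposited CPM.

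Here the deposited counts were fitted in R 4.3.3 by the quasi-likelihood method of edgeR 4.0.16 after TMM scaling (legacy=TRUE, entries above 1 CPM in at least 3 of 16 libraries, 13288 entries, Benjamini-Hochberg over all). Diets were compared in 1 fit of 16 libraries. Depots and the difference of responses had the mouse as a block, since each animal gave SAT and VAT. Libraries of the same diet and replicate number were taken as 1 mouse, a match read from the numbering of the labels. Deviations of same-mouse libraries from their groups' means had correlations of -0.009 to 0.173 (median 0.0759). Standard errors are the log2 fold change over the root of F. P-values of the diet comparisons measure the spread between mice of a group, estimated over the libraries of both depots as if independent. Those of the depots and the difference measure how the VAT against SAT difference varies between mice of 1 diet. Every pair of libraries of a group differed beyond counting error (chi-square over its degrees of freedom at least 9.88), and limits from 0 counts use 3 counts and cover counting error only.

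Every member is reported, with values in every library for those called in SAT or VAT or in the difference of responses, and related genes are named where called in SAT or VAT, except some that are not reported here. Members, lists and tests were chosen with earlier results of these data known. Marker lists covered adipocytes, macrophages, lipid-associated macrophages, skeletal muscle, brown and beige adipocytes, endothelium, smooth muscle, mesothelium, gut epithelium, B cells, exocrine pancreas, keratinocytes and T cells. Symbols came from RefSeq identifiers (82.0% of entries). Gene positions came from the GENCODE annotation of GRCm39. The fits were also run on simulated counts with known changes, and the outcome is not reported here. Alternatives were RLE factors, other filters, DESeq2 1.42.0, legacy=FALSE, 1 tissue alone, a replicate block or none, sums per gene and each mouse left out.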

Additional observations from a re-analysis of the deposited data

Results flagged for a closer look

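In each of the 4 groups the highest and lowest of the 4 libraries were compared with the others for the 30 tested members. Of 120 such groups 4 had a library far from the rest by Dixon's criterion, which chance gives in about 1 of 20. Slc25a20 was at 121 TMM-scaled CPM in VAT lean replicate 1, against 166 to 175 in the other 3 libraries, and at 115 in VAT obese replicate 1, against 147 to 149. These are the 2 shallowest libraries of the series. Acot2 was at 21.2 in SAT obese replicate 1, against 25.5 to 26.1 in the others. Decr2 was at 7.63 in SAT lean replicate 4, the shallowest SAT library, against 13.0 to 13.9.

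The diet response differed between the depots for 2 members by the test of the difference. The VAT response minus the SAT response was -1.61 on the log2 scale for Ehhadh and -1.30 for Acsl1.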

How the results depend on the processing

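No call of a member changed direction under any alternative. The calls of Cpt1b, Acsl1 and Acsl5 in SAT, of Decr1, Ucp3 and Ehhadh in VAT and of the Ehhadh difference held under every alternative run, and the median log2 fold changes of both organelle lists kept their sign, -0.24 to -0.13 and 0.10 to 0.24 in SAT and -0.44 to -0.23 and -0.64 to -0.33 in VAT (mitochondrial, then peroxisomal). Every alternative applied TMM, RLE or DESeq2 factors, so none scaled by the library total alone. Whether the signs hold on the deposited CPM was not tested, and on that scale the mean peroxisomal sum in SAT was lower in obese mice. The counts of called members moved more. Lower in SAT were 2, but 0 without a filter, 3 in a fit of SAT alone and 3 with the replicate number as a block. With 1 mouse left out they were 0 to 3. Without both shallow VAT libraries, an alternative chosen after seeing the data, they were 4. Higher in VAT were 0, but 1 (Cpt1b) with legacy=FALSE, and 0 to 1 with 1 mouse left out. Lower in VAT were 4, but 7 with filterByExpr, 7 with counts summed per gene, 7 without the shallow libraries and 3 to 12 with 1 mouse left out. Lean and obese mice share replicate numbers but no animal, and deviations of same-numbered libraries had correlations of -0.0942 to 0.0545 in SAT and 0.0813 to 0.173 in VAT. With the replicate number as a block 8 members were lower in VAT. DESeq2 called 1 higher and 4 lower responses in VAT (0 and 2 in edgeR), the fit without the replicate block of the mouse called 1 lower, and leaving out 1 mouse gave 2 to 5. Lower in VAT of lean mice were 3, but 1 without a filter, 0 without the replicate block, 1 without the shallow libraries and 0 to 3 with 1 mouse left out. Higher in VAT of obese mice was 1, but 2 with legacy=FALSE, 2 without the shallow libraries and 1 to 2 with 1 mouse left out. The cause of these moves was not tested. Depth limits the low members, since 1 count is 0.796 CPM in the shallowest library.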

Other observations

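The marker lists not described above moved as follows. Lipid-associated macrophage markers summed to 131 to 184 and 229.5 to 297 TMM-scaled CPM in the libraries of SAT of lean and obese mice and to 127 to 197 and 439 to 1622 in VAT, with 1 of 4 tested markers higher in obese SAT and 4 of 4 in obese VAT. B cell markers summed to 5.88, 5.49, 118 and 239 CPM in the same order, with 2 of 4 higher in obese VAT, and T cell markers to 2.97, 6.15, 12.7 and 30.5 CPM, with 1 of 2 higher in obese VAT. Mesothelial markers, at 444 and 309 CPM in VAT and at 0.54 and 0.258 CPM in SAT, marked the VAT libraries by their depot. Intestinal epithelium summed to 19.3, 15.2, 28.8 and 17.1 CPM, with 1 of 5 tested markers lower in obese VAT. Markers of exocrine pancreas (0 to 10.8 CPM), keratinocytes (0 to 3.10 CPM, Krt5 at 0), endothelium (157 to 320 CPM, Pecam1 listed with 0 counts) and smooth muscle (226 to 454 CPM) are given by the range of their summed level over the 16 libraries.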
